A study of Mus musculus with 12 samples.

Results

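The 35 genes described here encode the enzymes and the transporter that build, cap and trim the sialylated and branched sugar chains of the cell surface. They were the rows of the gene count table whose symbol was on a list of 11 sialyltransferases, 5 genes of sialic acid supply and removal, 9 genes that start or branch O-glycans, 5 N-glycan branching genes and 5 genes of chain extension and fucose. They were 35 of 56980 genes in the table, and all 35 were among the 20411 genes with enough counts to be tested. RNA was sequenced in bulk from CD8+ T cells that were sorted from tumours grown in C57BL/6J mice of wild type genotype. Tumours were Panc02, a mouse pancreatic cancer line, or Panc02 that expressed Flt3L, the growth factor that drives dendritic cell development. Sorted cells were DAPI-, CD45.2+ and CD8+, and were split into those without (asGM1-negative) and with (asGM1-positive) the glycolipid asialo-GM1 on their surface. The 4 groups, each of 3 libraries, were Panc02 asGM1-negative, Panc02 asGM1-positive, Flt3L Panc02 asGM1-negative and Flt3L Panc02 asGM1-positive. All groups shared the strain, the genotype, the Panc02 tumour and the CD8 gate. The age of the mice, any pooling of animals, how Flt3L expression was made and whether libraries came from separate mice were not given in the sources used here, so the p-values measure only the spread between these libraries.

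Sialic acids are acidic sugars that sialyltransferases add to the ends of glycan chains, at position 3 or 6 of galactose, at position 6 of N-acetylgalactosamine, or onto another sialic acid. The donor, CMP-sialic acid, is made from UDP-N-acetylglucosamine and carried into the Golgi, where branching enzymes decide how many ends a chain offers. On CD8+ T cells, capping of core 1 O-glycans by St3gal1 is known to be a feature of naive cells, whereas branching of the same core by Gcnt1 is known from activated cells, and Fut7 completes the sialyl Lewis x structure that selectins bind. Asialo-GM1, on which the cells were sorted, is itself a glycolipid that lacks sialic acid.

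Library totals lay between 98663008 and 102896605 counts, and levels are given as CPM, counts divided by the scaled size of the library. T cell marker genes were present in every library, with Cd8a, a gene of the sorted CD8, between 1569 and 2562 CPM. Their sum over 8 genes was 9238 to 12190 CPM in both Panc02 groups, 9685 to 11160 CPM in Flt3L Panc02 asGM1-negative and 12460 to 15860 CPM in Flt3L Panc02 asGM1-positive libraries. Genes of other cells were present too. Summed over 15 listed genes, plasmacytoid dendritic cell markers read 1048 to 1157 CPM in Panc02 asGM1-negative, 772 to 921 in Panc02 asGM1-positive, 1735 to 1874 in Flt3L Panc02 asGM1-negative and 839 to 958 in Flt3L Panc02 asGM1-positive libraries. Of these 15 genes, 8 in Panc02 and 9 in Flt3L Panc02 were lower past the threshold in the asGM1-positive gate, against 0.843% and 5.83% of all genes. In bulk RNA, fewer cells of a type and less RNA per cell cannot be told apart.

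Called members in the gate comparisons included several sialyltransferases. St6gal1, which joins sialic acid to position 6 of galactose on N-glycans, was lower in asGM1-positive cells of both tumours. St6galnac3, St3gal1 and St8sia4 were lower in Flt3L Panc02 and in the mean over both tumours, and St3gal2 in the mean. St3gal4 and St6galnac6 were higher in asGM1-positive cells of Flt3L Panc02 tumours, and St3gal6 was higher in the mean over both tumours. Genes were called at an adjusted p under 0.05 in the quasi-likelihood test of edgeR, with Benjamini-Hochberg adjustment over all 20411 genes, and every adjusted p below is from this test unless another is named.

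St6gal1 was the member called between the gates in both tumours, so the bases before its starts are shown. RefSeq lists 3 starts of the gene on GRCm38.p6, and each line gives the 250 bases before one of them, with the genomic window and strand. Capitals mark matches to 4 short motifs searched on both strands, which are CCACCC of KLF factors, GGTGTG of T-box factors, CTTTGA of TCF/LEF factors and TGANTCA of AP-1.
St6gal1 start 1, chr16:23224490-23224739, plus strand: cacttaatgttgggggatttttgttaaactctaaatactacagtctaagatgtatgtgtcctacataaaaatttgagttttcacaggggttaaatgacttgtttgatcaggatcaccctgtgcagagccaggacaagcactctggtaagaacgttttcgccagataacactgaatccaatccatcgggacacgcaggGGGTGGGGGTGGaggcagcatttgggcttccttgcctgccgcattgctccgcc
St6gal1 start 2, chr16:23225771-23226020, plus strand: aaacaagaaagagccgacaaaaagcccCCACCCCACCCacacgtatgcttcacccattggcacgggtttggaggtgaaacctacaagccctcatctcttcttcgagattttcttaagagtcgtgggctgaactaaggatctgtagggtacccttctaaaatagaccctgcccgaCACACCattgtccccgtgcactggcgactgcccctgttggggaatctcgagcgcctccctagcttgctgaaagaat
St6gal1 start 3, chr16:23290220-23290469, plus strand: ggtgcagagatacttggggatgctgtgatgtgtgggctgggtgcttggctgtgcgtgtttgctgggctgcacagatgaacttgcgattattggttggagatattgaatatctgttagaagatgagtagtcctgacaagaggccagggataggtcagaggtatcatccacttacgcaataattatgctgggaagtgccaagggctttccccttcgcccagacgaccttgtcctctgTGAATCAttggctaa
St8sia4, chr1:95667595-95667844, minus strand: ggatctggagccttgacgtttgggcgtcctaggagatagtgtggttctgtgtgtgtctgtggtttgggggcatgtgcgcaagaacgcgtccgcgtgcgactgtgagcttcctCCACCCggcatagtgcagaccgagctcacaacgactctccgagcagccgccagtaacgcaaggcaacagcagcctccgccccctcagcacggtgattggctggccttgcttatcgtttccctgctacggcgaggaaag
St8sia4 is set beside it because it was lower in the asGM1-positive gate of Flt3L Panc02. The KLF letters occurred 2 times before start 1 and 2 times before start 2 of St6gal1, in overlapping or touching runs, and 1 time before St8sia4. Start 2 also had 1 match to the T-box letters, and start 3 had 1 match to the AP-1 letters. Over the 29 members with a RefSeq window, 19 of 44 windows (43.2%) held the KLF letters, against 28.1% of all 32851 windows of this length. The T-box letters were in 13.6% of member windows and 16.3% of all, the TCF/LEF letters in 20.5% and 13.8%, and the AP-1 letters in 6.82% and 6.75%. For St6gal1 the bases after each start read as a GENCODE transcript of the gene, which they did for 32 of the 44 windows but not for St8sia4. These are letter matches in reference sequence and not measured binding.

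In Panc02 tumours, St6gal1 read 58.6, 52.8 and 50.3 CPM in the asGM1-negative libraries and 18.1, 20.4 and 22.0 CPM in the asGM1-positive ones. In Flt3L Panc02 tumours it read 34.9, 56.4 and 60.4 CPM in the asGM1-negative libraries and 21.8, 21.9 and 22.4 CPM in the asGM1-positive ones. All 6 asGM1-negative libraries were above all 6 asGM1-positive ones, and replicate 1 of Flt3L Panc02 asGM1-negative was the lowest of the former. The asGM1-positive level was 2.68-fold lower in Panc02 (log2 -1.42 ± 0.18 SE, adjusted p = 0.00259) and 2.30-fold lower in Flt3L Panc02 (log2 -1.20 ± 0.18 SE, adjusted p = 0.00239). The gate effect did not differ detectably between the tumours (log2 difference 0.22 ± 0.25 SE, adjusted p = 0.709). Between Flt3L Panc02 and Panc02 tumours, St6gal1 had a log2 difference of -0.09 ± 0.17 SE in asGM1-negative cells (adjusted p = 0.826). In asGM1-positive cells it was 0.13 ± 0.17 SE (adjusted p = 0.709). Markers of some other cells were also lower in the asGM1-positive gate. Siglech, a plasmacytoid dendritic cell marker, had means of 51.2 and 1.65 CPM in the gates of Panc02 and 268 and 2.83 CPM in those of Flt3L Panc02. In the same asGM1-negative groups, the mean of St6gal1 was 53.9 ± 4.26 CPM (SD, n = 3) in Panc02 and 50.6 ± 13.8 CPM (SD, n = 3) in Flt3L Panc02. The B cell list summed to 362 to 451 and 219 to 378 CPM in the asGM1-negative and asGM1-positive gates of Panc02, and to 679 to 794 and 326 to 488 CPM in those of Flt3L Panc02. Of its 7 genes with enough counts, 1 (Cd79b) was called lower in the asGM1-positive gate of Panc02 and 3 (Cd79b, Mzb1 and Ighm) in that of Flt3L Panc02. Pax5 was at 0 in 11 of the 12 libraries. The sum for the list of helper and regulatory T cells was 131 to 169.5 CPM in Panc02 asGM1-positive against 240.2 to 250.4 CPM in Panc02 asGM1-negative, and 122 to 139.9 against 187 to 220.0 CPM in Flt3L Panc02. Other lists were not lower there. Macrophage and monocyte markers summed to 1957 to 3950 CPM in Panc02 asGM1-positive against 1833 to 2194 CPM in Panc02 asGM1-negative. Natural killer cell markers summed to 67.45 to 80.14 against 48.75 to 66.16 CPM in Panc02, and to 64.4 to 91.83 against 41.06 to 56.38 CPM in Flt3L Panc02. The part of all these other cells in the St6gal1 difference was not tested.

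**Figure D1:**
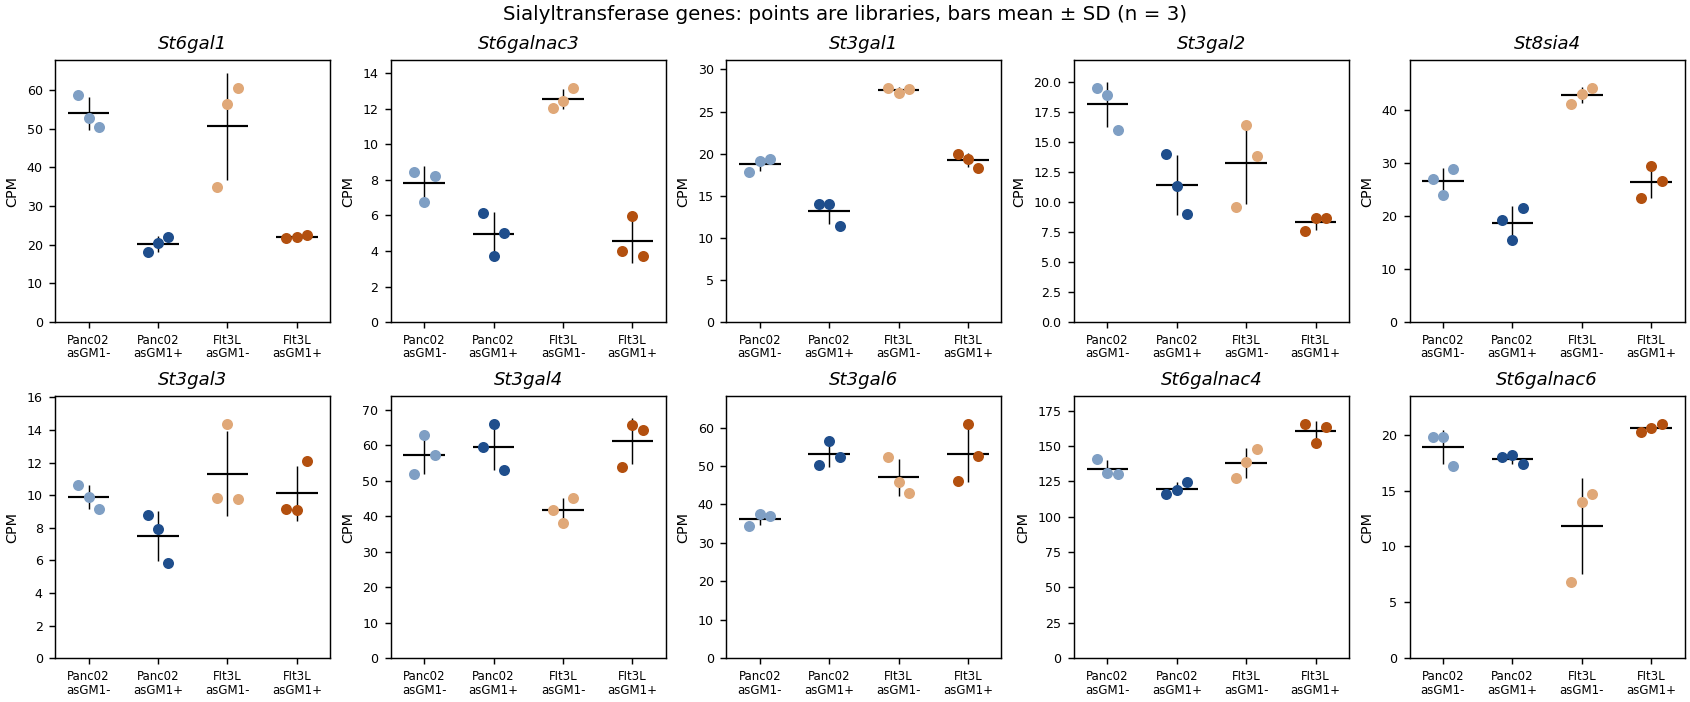
Levels of the sialyltransferase genes in CPM on linear axes from 0, by group, with points for libraries and bars for the mean and SD of 3 libraries. St6gal1 lies at 34.9 CPM or above in every asGM1-negative library and at 22.4 CPM or below in every asGM1-positive one.

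St6galnac3 places sialic acid on the N-acetylgalactosamine of already sialylated O-glycans and glycolipids. It read 12.04, 12.5 and 13.2 CPM in Flt3L Panc02 asGM1-negative and 3.98, 5.97 and 3.69 CPM in Flt3L Panc02 asGM1-positive libraries, a 2.76-fold lower level (log2 -1.46 ± 0.23 SE, adjusted p = 0.00316). In Panc02 the values were 8.47, 6.73 and 8.24 CPM against 6.15, 3.70 and 5.004 CPM (log2 -0.66 ± 0.22 SE, adjusted p = 0.31). The gates did not overlap in either tumour, and the difference between the tumours was not called (log2 -0.81 ± 0.32 SE, adjusted p = 0.272).

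St3gal1, which caps the galactose of core 1 O-glycans with sialic acid at position 3, was called in both Flt3L comparisons and in the Flt3L Panc02 gate comparison. It read 17.8, 19.1 and 19.4 CPM in Panc02 asGM1-negative and 14.0, 14.0 and 11.4 CPM in Panc02 asGM1-positive libraries. In Flt3L Panc02 it read 27.8, 27.3 and 27.7 CPM in the asGM1-negative libraries and 20.0, 19.4 and 18.3 CPM in the asGM1-positive ones. Flt3L Panc02 asGM1-negative libraries were the highest, and none of the compared groups overlapped. The gate difference was a log2 of -0.52 ± 0.11 SE in each tumour, with adjusted p = 0.0621 in Panc02 and 0.0157 in Flt3L Panc02. St3gal1 was higher in Flt3L Panc02 than in Panc02, 1.47-fold in asGM1-negative (adjusted p = 0.024) and 1.46-fold in asGM1-positive cells (adjusted p = 0.0193). Over both tumours the gate difference was called (log2 -0.52 ± 0.08 SE, adjusted p = 0.00231) and stayed called without any 1 library. The Flt3L Panc02 gate call was lost without replicate 2 or 3 of either gate (adjusted p 0.0508 to 0.0523). The Flt3L calls were lost in asGM1-negative cells without any 1 library except Flt3L Panc02 replicate 1 (0.0751 to 0.0992), and in asGM1-positive cells without replicate 2 of Panc02 (0.0555) or of Flt3L Panc02 (0.0751).

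St8sia4 encodes a polysialyltransferase, which extends sialic acid into long chains. Its values were 27.0, 23.9 and 28.9 CPM in Panc02 asGM1-negative and 19.2, 15.4 and 21.5 CPM in Panc02 asGM1-positive libraries. They were 41.1, 42.9 and 44.1 CPM in Flt3L Panc02 asGM1-negative and 23.3, 29.4 and 26.6 CPM in Flt3L Panc02 asGM1-positive libraries. The Flt3L Panc02 asGM1-negative libraries stood above all others, as for St3gal1. The gene was 1.61-fold lower in asGM1-positive cells of Flt3L Panc02 (log2 -0.69 ± 0.14 SE, adjusted p = 0.0124), and its log2 difference in Panc02 was -0.51 ± 0.14 SE (adjusted p = 0.169). In asGM1-negative cells St8sia4 was 1.61-fold higher in Flt3L Panc02 than in Panc02 (log2 0.68 ± 0.14 SE, adjusted p = 0.0256). This call was lost without any 1 library except Flt3L Panc02 replicate 1 (0.0635 to 0.122). In asGM1-positive cells the difference was not called (log2 0.50 ± 0.14 SE, adjusted p = 0.057). Without both Flt3L Panc02 libraries numbered 1, the gate call in Flt3L Panc02 was lost (0.0556).

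St3gal2, which acts on core 1 chains of glycolipids and O-glycans, read 19.4, 18.8 and 16 CPM in Panc02 asGM1-negative and 14.0, 11.3 and 8.95 CPM in Panc02 asGM1-positive libraries. In Flt3L Panc02 it read 9.59, 16.4 and 13.8 CPM against 7.596, 8.69 and 8.65 CPM. The gates did not overlap in either tumour. The gate difference averaged over both was a log2 of -0.67 ± 0.15 SE (adjusted p = 0.0199). This call was lost without 1 of 6 libraries (adjusted p 0.051 to 0.0545), which were replicates 1 and 2 of Panc02 asGM1-negative, replicate 2 of Panc02 asGM1-positive, replicates 2 and 3 of Flt3L Panc02 asGM1-negative and replicate 1 of Flt3L Panc02 asGM1-positive.

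St3gal4 and St3gal6 sialylate position 3 of galactose on N-acetyllactosamine chains, the substrates from which sialyl Lewis x is made. St3gal4 read 41.8, 38.0 and 45.1 CPM in Flt3L Panc02 asGM1-negative and 53.8, 65.8 and 64.3 CPM in Flt3L Panc02 asGM1-positive libraries, a 1.47-fold higher level (log2 0.56 ± 0.12 SE, adjusted p = 0.0187). In Panc02 the groups overlapped, with 51.8, 62.8 and 57.3 CPM against 59.5, 65.9 and 53.0 CPM. Flt3L Panc02 asGM1-negative was thus the low group for St3gal4. St3gal6 read 34.5, 37.5 and 37.0 CPM in Panc02 asGM1-negative and 50.3, 56.5 and 52.3 CPM in Panc02 asGM1-positive libraries. In Flt3L Panc02 it read 52.4, 45.8 and 43.1 CPM against 46.0, 60.9 and 52.6 CPM. Here Panc02 asGM1-negative was the low group, the gates overlapped in Flt3L Panc02, and the mean gate difference over both tumours was called (log2 0.36 ± 0.08 SE, adjusted p = 0.0271). The St3gal4 call was lost without replicate 2 of Flt3L Panc02 asGM1-negative (0.0775) or replicate 2 (0.0652) or 3 (0.0565) of Flt3L Panc02 asGM1-positive. The St3gal6 call held only without replicate 1 of Panc02 asGM1-positive or replicate 1 of either Flt3L Panc02 group, and was lost without any 1 of the other 9 libraries (0.055 to 0.0811).

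St6galnac4 and St6galnac6 are neighbouring genes whose enzymes add sialic acid to position 6 of N-acetylgalactosamine or of related glycolipid residues. St6galnac4 had the highest level per kilobase of exon among the sialyltransferases, a mean of 21.3 CPM per kilobase over the 12 libraries. It read 116, 119 and 125 CPM in Panc02 asGM1-positive and 166, 152 and 164 CPM in Flt3L Panc02 asGM1-positive libraries, which did not overlap (1.34-fold, log2 0.42 ± 0.09 SE, adjusted p = 0.0206). In asGM1-negative cells it read 141, 131 and 130.3 CPM in Panc02 and 127, 139 and 148 CPM in Flt3L Panc02, and these groups overlapped. St6galnac6 read 6.83, 14.0 and 14.7 CPM in Flt3L Panc02 asGM1-negative libraries and 20.3, 20.6 and 20.9 CPM in Flt3L Panc02 asGM1-positive libraries (1.74-fold higher in the latter, log2 0.80 ± 0.22 SE, adjusted p = 0.0475). The low value of replicate 1 widens the asGM1-negative spread, and the gates do not overlap. The Panc02 libraries lay between 17.2 and 19.8 CPM. The St6galnac4 call was lost without replicate 1 (adjusted p 0.0951) or 2 (0.0863) of Panc02 asGM1-positive or replicate 2 (0.0584) or 3 (0.0605) of Flt3L Panc02 asGM1-positive. The St6galnac6 call was lost without replicate 2 of Flt3L Panc02 asGM1-negative (0.0708) or any 1 Flt3L Panc02 asGM1-positive library (0.0966 to 0.111).

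The other 2 sialyltransferases passed no test. St3gal3 read 5.83 to 14.3 CPM over the 12 libraries. St8sia6, another enzyme that links sialic acid to sialic acid, read 0 to 0.259 CPM, near or under the floor of 3 fragments (0.0901 CPM), and no fold is given. By level per kilobase the order after St6galnac4 was St3gal4 (18.8 CPM per kilobase), St3gal6 (7.68), St6gal1 (7.46), St6galnac6 (3.59), St3gal3 (3.50), St3gal1 (2.87), St3gal2 (2.53), St8sia4 (1.42) and St6galnac3 (0.830). St3gal6 with St6gal1, and St6galnac6 with St3gal3, lie close together in this order, which uses means over the 12 libraries and changes between groups. St6gal1 and St3gal6 read 10.97 and 5.887 CPM per kilobase in Panc02 asGM1-negative, and 4.1 and 8.591 in Panc02 asGM1-positive. In Panc02 asGM1-positive St3gal4 (20.35) was above St6galnac4 (18.49). Exons of St6gal1, St3gal4, St3gal6 and St8sia6 overlap those of other annotated genes. Outside the sialyltransferases the same holds for the called members Nans, Gcnt2 and Mgat2. It also holds for Slc35a1, Galnt2, Galnt7, Man2a1, Mgat5, B3gnt2, B4galt3 and Fut8. With the strand of the libraries not stated, reads in these overlaps cannot be assigned to one gene.

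Among the 5 genes of sialic acid supply and removal, only Nans was called in the edgeR fit over 20411 genes. It encodes the synthase that makes sialic acid phosphate. Nans read 127, 99.8 and 104 CPM in Flt3L Panc02 asGM1-negative and 167, 149 and 185 CPM in Flt3L Panc02 asGM1-positive libraries, without overlap (1.52-fold, log2 0.60 ± 0.13 SE, adjusted p = 0.0187). In Panc02 the gates overlapped, at 123, 139.6 and 150.0 CPM against 129, 136 and 163 CPM. The call was lost without replicate 2 (adjusted p 0.0785) or 3 (0.0673) of Flt3L Panc02 asGM1-negative or replicate 3 of Flt3L Panc02 asGM1-positive (0.0656). Gne, which makes the sugar precursor in the rate-limiting step, read 50.9 to 76.1 CPM over the 12 libraries. Cmas, which activates sialic acid with CMP, read 65.3 to 86.8 CPM, and Slc35a1, the Golgi transporter of CMP-sialic acid, 21.9 to 32.0 CPM. Neu1, the lysosomal sialidase, read 37.0 to 46.1 CPM in Panc02 asGM1-negative and 46.4 to 61.0 CPM in Flt3L Panc02 asGM1-negative libraries. This difference was not called by edgeR (log2 0.42 ± 0.15 SE, adjusted p = 0.131), but another test, limma-voom, called it.

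O-glycan genes gave 3 called members. Galnt3 encodes one of the enzymes that start O-glycans by adding N-acetylgalactosamine to serine or threonine. It read 17.3, 15.1 and 20.1 CPM in Flt3L Panc02 asGM1-negative and 35.5, 30.6 and 24.5 CPM in Flt3L Panc02 asGM1-positive libraries (1.72-fold, log2 0.79 ± 0.17 SE, adjusted p = 0.017). The Flt3L Panc02 asGM1-negative libraries were below all others, since Panc02 read 23.8, 31.0 and 29.5 CPM in the asGM1-negative libraries and 27.1, 33.2 and 35.1 CPM in the asGM1-positive ones. The Flt3L difference in asGM1-negative cells was just outside the threshold (log2 -0.68 ± 0.17 SE, adjusted p = 0.0503). The Galnt3 gate call in Flt3L Panc02 was lost without replicate 2 of asGM1-negative (0.0756) or replicate 1 of asGM1-positive (0.0618). Over both tumours Galnt3 was also called higher in asGM1-positive cells (log2 0.48 ± 0.12 SE, adjusted p = 0.036), a call that held only without replicate 1 of Panc02 asGM1-positive, replicate 3 of Flt3L Panc02 asGM1-negative or replicate 3 of Flt3L Panc02 asGM1-positive, and was otherwise lost (0.0523 to 0.0943).

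Gcnt1 makes the core 2 branch and competes with St3gal1 for the same core 1 chain. It read 43.0, 51.5 and 55.7 CPM in Panc02 asGM1-negative, 47.5, 51.5 and 52.0 CPM in Panc02 asGM1-positive, 32.1, 27.8 and 37.4 CPM in Flt3L Panc02 asGM1-negative and 53.0, 42.2 and 36.8 CPM in Flt3L Panc02 asGM1-positive libraries. Flt3L Panc02 asGM1-negative was again the low group. In asGM1-negative cells Gcnt1 was 1.54-fold lower in Flt3L Panc02 than in Panc02 (log2 -0.63 ± 0.16 SE, adjusted p = 0.0494). The call was lost without any 1 of the 6 libraries compared (0.0538 to 0.185). In that group Gcnt1 was low where St3gal1 was high, so the log2 ratio of Gcnt1 over St3gal1 was set out by library, as a description chosen after the values were seen and given no test. It was 1.41 ± 0.13 (SD, n = 3) in Panc02 asGM1-negative, 1.94 ± 0.22 in Panc02 asGM1-positive, 0.22 ± 0.20 in Flt3L Panc02 asGM1-negative and 1.18 ± 0.21 in Flt3L Panc02 asGM1-positive libraries. The Flt3L Panc02 asGM1-negative ratios of 0.21, 0.03 and 0.43 were below those of the other 9 libraries, of which the lowest was 1.01. The ratio of St6gal1 over St3gal4, likewise given no test, had log2 values of -0.26 to 0.57 in the 6 asGM1-negative libraries. In the 6 asGM1-positive libraries it was -1.72 to -1.27. St6gal1 alone already split the gates, so this ratio adds no separate result. These are ratios of counts and not of enzyme or glycan amounts.

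**Figure D2:**
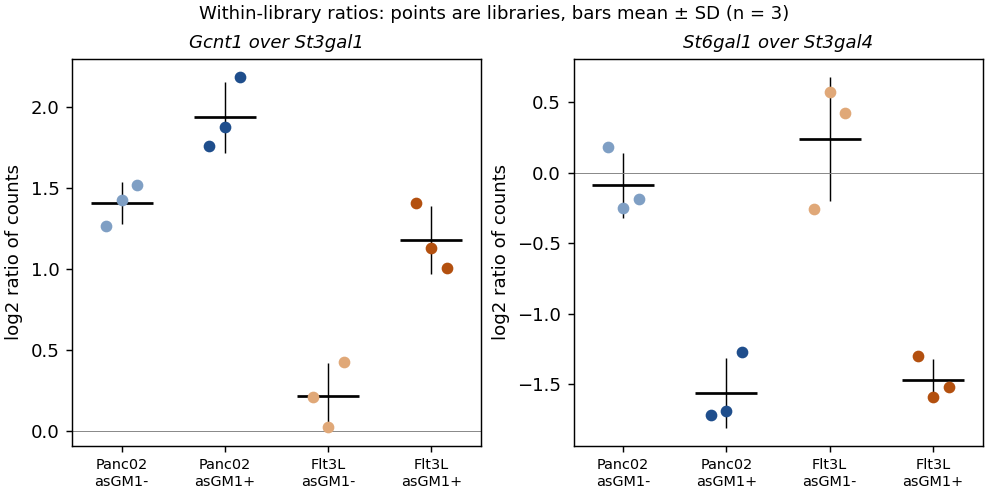
Log2 ratios of CPM between Gcnt1 and St3gal1 and between St6gal1 and St3gal4, by group, with points for libraries and bars for the mean and SD of 3 libraries. The first ratio is lowest in Flt3L Panc02 asGM1-negative (0.03 to 0.43), and the second separates the gates, as St6gal1 does alone.

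Gcnt2 makes the branches of I-type poly-N-acetyllactosamine. It read 3.02, 4.45 and 2.72 CPM in Flt3L Panc02 asGM1-negative and 1.33, 0.543 and 0.255 CPM in Flt3L Panc02 asGM1-positive libraries, a 4.78-fold lower level (log2 -2.26 ± 0.57 SE, adjusted p = 0.0327). In Panc02 it read 4.83, 2.46 and 2.76 CPM in the asGM1-negative libraries and 7.39, 4.80 and 2.29 CPM in the asGM1-positive ones. Flt3L Panc02 asGM1-positive was therefore the low group, 6.79-fold under Panc02 asGM1-positive (log2 -2.76 ± 0.58 SE, adjusted p = 0.0211). The gene had few counts, and its gate call was lost without replicate 2 (0.106) or 3 (0.0567) of Flt3L Panc02 asGM1-negative or replicate 2 (0.101) or 3 (0.0898) of Flt3L Panc02 asGM1-positive. Its Flt3L call was lost without replicate 1 (0.0731) or 2 (0.0639) of Panc02 asGM1-positive or replicate 2 (0.0909) or 3 (0.0738) of Flt3L Panc02 asGM1-positive. The remaining O-glycan genes were not called in any comparison of the edgeR fit over 20411 genes. Another test, limma-voom, called Galnt10 in the mean over both tumours and Galnt2 for Flt3L in asGM1-positive cells. Over the 12 libraries the initiating enzymes Galnt1, Galnt2, Galnt7 and Galnt10 read 67.9 to 109.6, 43.3 to 97.5, 22.1 to 39.6 and 36.7 to 84.7 CPM. C1galt1, which makes core 1, read 14.7 to 24.4 CPM, and its chaperone C1galt1c1 read 13.1 to 18.6 CPM.

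Of the 5 N-glycan branching genes, Mgat2 was called in the Flt3L Panc02 gate comparison. Its enzyme adds the second N-acetylglucosamine branch. Mgat2 read 72.0, 95.3 and 107 CPM in Flt3L Panc02 asGM1-negative and 137, 142 and 118 CPM in Flt3L Panc02 asGM1-positive libraries (1.45-fold, log2 0.53 ± 0.14 SE, adjusted p = 0.0414). In Panc02 the order was the opposite, at 112, 115 and 132 CPM against 102, 97.5 and 114 CPM, and the groups overlapped. The call was lost without replicate 1 (0.0691) or 2 (0.0959) of Flt3L Panc02 asGM1-negative or replicate 1 (0.102) or 2 (0.115) of Flt3L Panc02 asGM1-positive. Mgat5, which makes the branch that carries long galectin-binding chains, read 22.9, 24.1 and 19.7 CPM against 18.3, 15.9 and 17.5 CPM in the Flt3L Panc02 gates. These groups did not overlap and the difference was not called (log2 -0.36 ± 0.12 SE, adjusted p = 0.0766). Mgat1, which starts complex N-glycans, read 76.2 to 129 CPM over the 12 libraries, Man2a1, which trims the chain for Mgat2, 13.8 to 19.7 CPM, and Mgat4a, another branching enzyme, 10.4 to 18.6 CPM.

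Fut7 was the called member among the chain extension and fucose genes. RefSeq gives 2 starts of it on GRCm38.p6. The 250 bases before start 1 held none of the 4 motifs, and the bases after it did not read as a GENCODE transcript of the gene. The window before start 2, which is not printed, held 1 match to the KLF letters, and the bases after it did read as a transcript. Start 1 is shown because Fut7 was called in the Flt3L Panc02 gate comparison and for Flt3L in asGM1-negative cells.
Fut7 start 1, chr2:25422992-25423241, plus strand: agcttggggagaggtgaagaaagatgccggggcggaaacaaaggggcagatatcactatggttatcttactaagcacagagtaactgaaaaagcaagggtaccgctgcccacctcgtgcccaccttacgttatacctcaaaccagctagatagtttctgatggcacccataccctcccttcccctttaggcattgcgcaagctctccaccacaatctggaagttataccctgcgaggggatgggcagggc
Fut7 read 61.1, 71.7 and 81.0 CPM in Panc02 asGM1-negative, 56.9, 62.2 and 80.4 CPM in Panc02 asGM1-positive, 37.7, 35.5 and 37.0 CPM in Flt3L Panc02 asGM1-negative and 59.0, 63.5 and 71.2 CPM in Flt3L Panc02 asGM1-positive libraries. The Flt3L Panc02 asGM1-negative libraries lay below the other 9 and close to one another. In asGM1-negative cells Fut7 was 1.94-fold lower in Flt3L Panc02 than in Panc02 (log2 -0.96 ± 0.14 SE, adjusted p = 0.00825). In asGM1-positive cells the log2 difference was -0.04 ± 0.14 SE (adjusted p = 0.898). Within Flt3L Panc02 the asGM1-positive level was 1.76-fold higher (log2 0.81 ± 0.14 SE, adjusted p = 0.00624). Both calls held without any 1 library. The gate effect was larger in Flt3L Panc02 than in Panc02 by a log2 of 0.91 ± 0.20 SE, which edgeR did not call (adjusted p = 0.0867). The other members of the group were not called in the edgeR fit over 20411 genes. By other tests, DESeq2 and limma-voom called B3gnt2 in the mean over both tumours. B3gnt2, which extends poly-N-acetyllactosamine, read 99.3 to 140.3 CPM over the 12 libraries, B4galt1, which adds galactose, 82.0 to 112 CPM, its relative B4galt3 16.9 to 29.5 CPM, and Fut8, which adds the core fucose of N-glycans, 27.6 to 44.9 CPM.

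**Figure D3:**
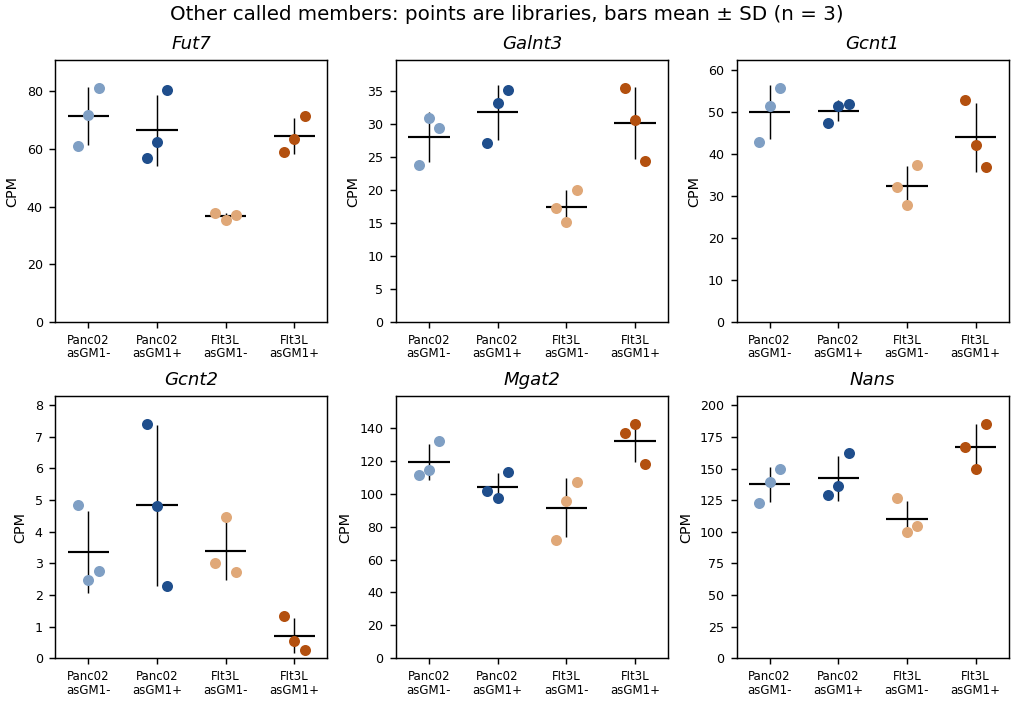
Levels in CPM on linear axes from 0 of the called members that are not sialyltransferases, by group, with points for libraries and bars for the mean and SD of 3 libraries. Fut7, Galnt3 and Gcnt1 have their lowest means in Flt3L Panc02 asGM1-negative, and Gcnt2 in Flt3L Panc02 asGM1-positive.

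Counted by comparison, 1 of 35 members was called between the gates in Panc02, against 0.892% of all genes tested. That member was St6gal1, which was lower in asGM1-positive cells, where 0.843% of all genes were called lower and 0.049% higher. St3gal1, St3gal6, St8sia4 and St3gal2 had adjusted p of 0.0621, 0.0657, 0.169 and 0.249 there, and the median log2 difference of the members was -0.08, against 0.02 over all genes. In Flt3L Panc02, 11 of 35 members (31.4%) were called, against 8.59% of all genes. Of these, 6 were higher in asGM1-positive cells (Fut7, Galnt3, St3gal4, Nans, Mgat2 and St6galnac6), where 2.77% of all genes were called higher, and 5 were lower (St6gal1, St6galnac3, St8sia4, St3gal1 and Gcnt2), where 5.83% were called lower. The gates did not overlap for any of the 11. They did not overlap either for the uncalled members St3gal2, St6galnac4, St8sia6, Galnt2, Mgat4a, Mgat5, B3gnt2 and B4galt3. No share over all genes was taken for this, so it is no result about the members. The median of the members was 0.02, against -0.01 over all genes. A stricter filter, at least 5 CPM in at least 3 libraries, left 10821 genes. With it 12 members were called here, against 12.8% of those genes, and 1 in Panc02, against 1.35%. Without 1 library the count of 11 fell to between 4 and 11, with 4 without replicate 2 of Flt3L Panc02 asGM1-negative and 6 without replicate 2 or replicate 3 of Flt3L Panc02 asGM1-positive. The share of all genes called in those runs was 3.63%, 5.1% and 4.62%. Without both Flt3L Panc02 libraries numbered 1 the count was 7, against 5.64% of all genes. Replicate 1 of Flt3L Panc02 asGM1-negative had the lowest value in its group for 19 of 34 members. Replicate 1 of Panc02 asGM1-positive was lowest in its group for 19 as well, and no share over all genes was taken.

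In the mean over both tumours 7 of 35 members were called, against 6.19% of all genes (4.51% lower and 1.68% higher). Lower in asGM1-positive cells were St6gal1 (log2 -1.31 ± 0.13 SE, adjusted p = 8.92e-05), St6galnac3 (-1.06 ± 0.16 SE, 0.00216), St3gal1, St8sia4 (-0.60 ± 0.10 SE, 0.00395) and St3gal2, and higher were St3gal6 and Galnt3. The 11 sialyltransferases thus had 5 called lower and 1 called higher, with a median log2 difference of -0.52, against 0.01 over all genes. With the stricter filter 8 members were called, against 8.91% of genes. Without 1 library the count of 7 lay between 4 and 8, with 4 without replicate 1 or replicate 2 of Panc02 asGM1-negative, replicate 2 of Panc02 asGM1-positive or replicate 2 of Flt3L Panc02 asGM1-negative. In the runs with 4 members, 3.82% to 4.22% of all genes were called. Of the 35 members, 24 had the same sign of gate difference in both tumours, against 53.4% of all genes.

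**Figure D4:**
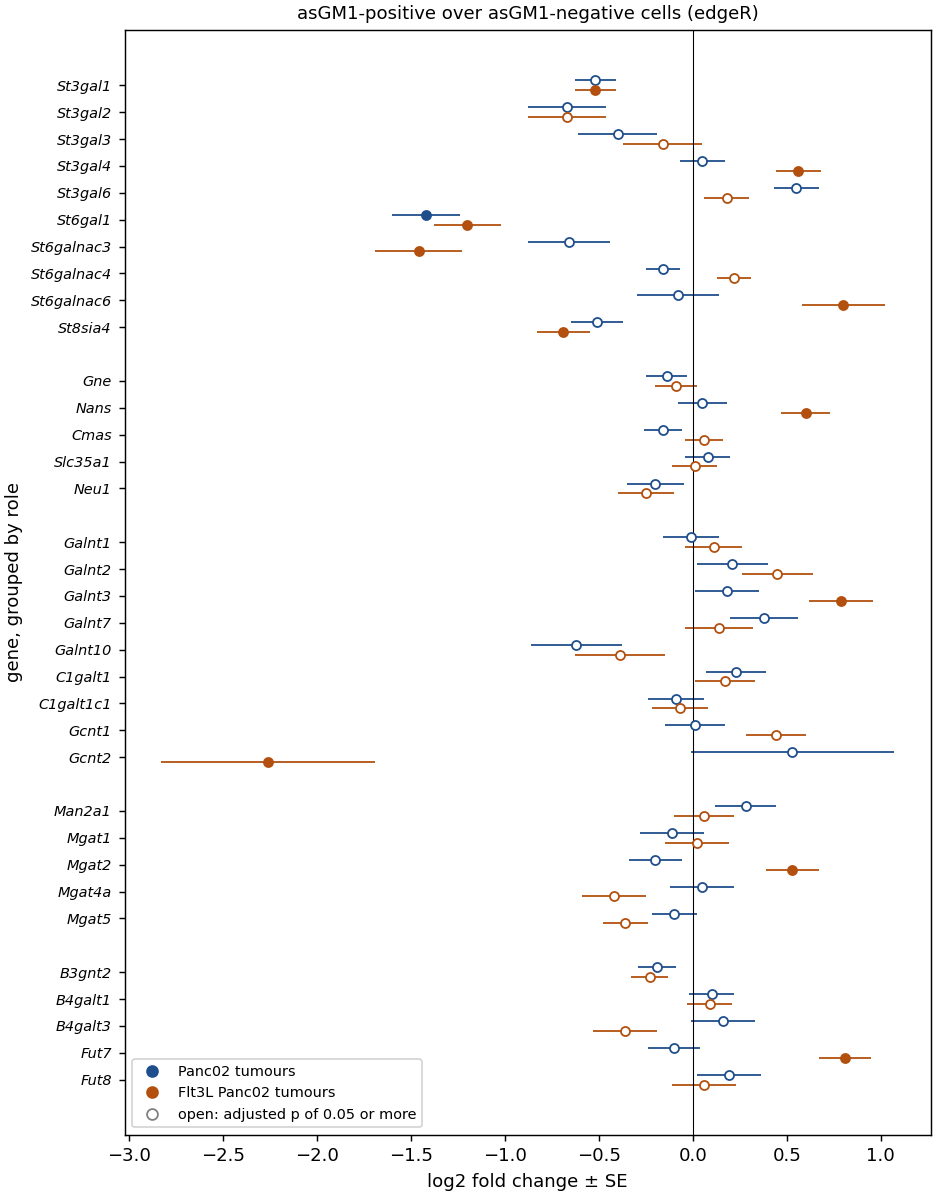
Log2 fold change of asGM1-positive over asGM1-negative cells in each tumour for the members other than St8sia6, with the standard error as bars and filled points for adjusted p under 0.05. St6gal1 is filled in both tumours, and the 10 other filled points are in Flt3L Panc02.

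Between Flt3L Panc02 and Panc02 tumours, 4 of 35 members were called in asGM1-negative cells, against 3.7% of all genes (1.86% higher and 1.84% lower). St3gal1 and St8sia4 were higher, and Fut7 and Gcnt1 were lower in Flt3L Panc02 tumours. With the stricter filter 5 members were called, against 8.1% of genes. In asGM1-positive cells 3 of 35 (8.57%) were called, against 6.25% of all genes (2.05% higher and 4.2% lower), with St3gal1 and St6galnac4 higher and Gcnt2 lower. The stricter filter gave 3 members there, against 10.2% of genes. The 2 Flt3L comparisons use different libraries, and each shares libraries with the gate comparisons. In asGM1-negative cells the count was 1 without any 1 library except Flt3L Panc02 replicate 1, and Fut7 was the gene that stayed. In those runs 0.442% to 1.88% of all genes were called, so calls were fewer over the whole table too. In asGM1-positive cells the count of members was 0 without replicate 2 of either tumour and 1 without Panc02 replicate 1 or Flt3L Panc02 replicate 3. Of all genes, 1.01% to 1.96% were called in those runs.

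**Figure D5:**
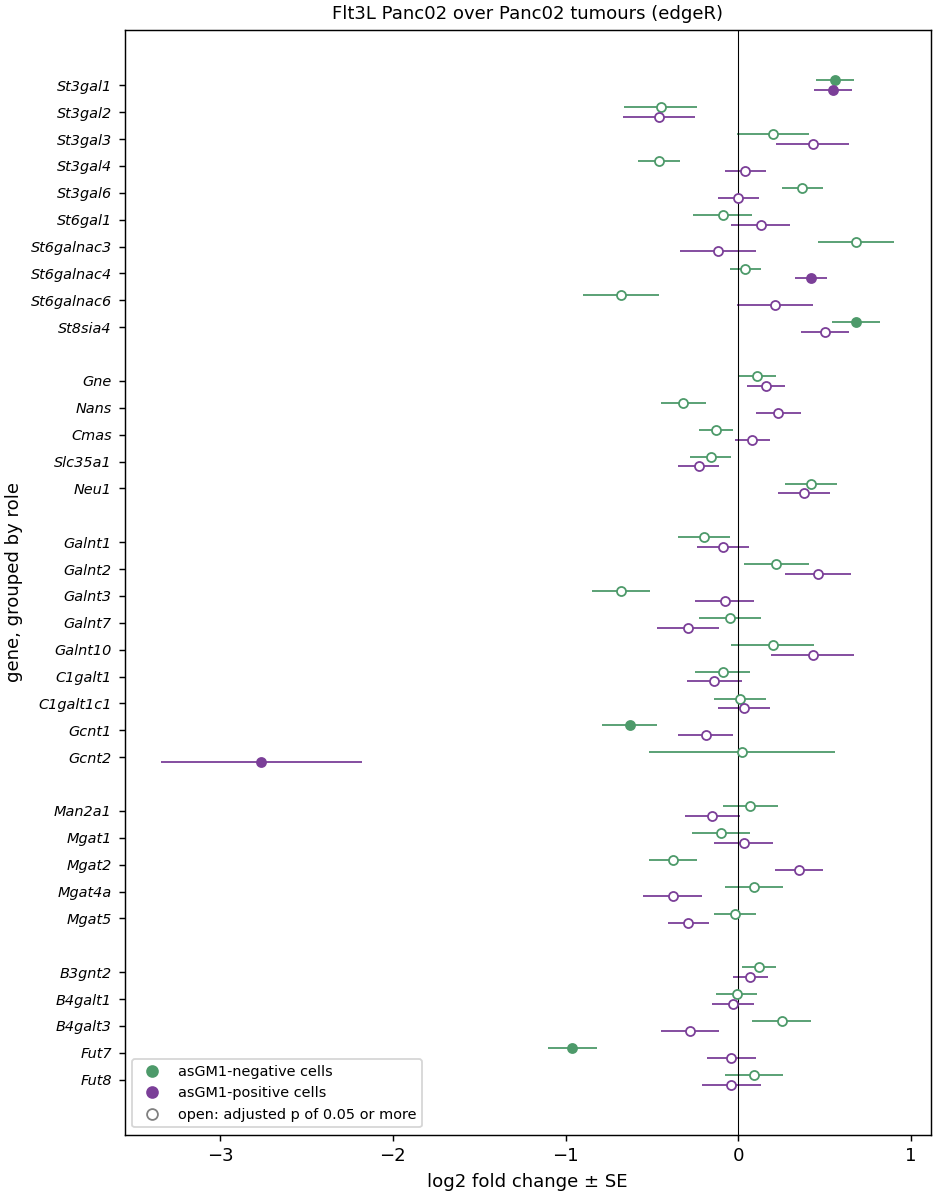
Log2 fold change of Flt3L Panc02 over Panc02 tumours in each gate for the members other than St8sia6, with the standard error as bars and filled points for adjusted p under 0.05. St3gal1 is filled in both gates, Fut7, Gcnt1 and St8sia4 in asGM1-negative cells, and St6galnac4 and Gcnt2 in asGM1-positive cells.

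The difference of the gate effects between the tumours was called for 0 of 35 members by edgeR, against 0.367% of all genes (0.0343% higher and 0.333% lower). An unadjusted p under 0.05 was found for 9 members. No share of all genes at that unadjusted p was taken, so this count is no result about the members. DESeq2 called 4 (Fut7, St6galnac4, Gcnt2 and Mgat2) and limma-voom called 4 (Fut7, Nans, Gcnt2 and Mgat2). Of all genes, these tests called 4.23% and 3.85%. In edgeR, Mgat2 had a log2 difference of 0.73 ± 0.20 SE (adjusted p = 0.142), Gcnt2 of -2.78 ± 0.78 SE (0.148) and Nans of 0.55 ± 0.19 SE (0.215). A member called in one tumour and not in the other is therefore not shown by edgeR to differ between them. Without replicate 3 of Panc02 asGM1-positive the count was 1, against 1.21% of all genes. Among the 8 T cell genes, 4 were called higher with Flt3L in the asGM1-positive gate, against 2.05% of all genes. Within Flt3L Panc02, 2 were called higher in that gate, against 2.77% of all genes. Flt3L Panc02 asGM1-positive is also the group with the highest means of St6galnac4, Nans and Mgat2, and the part of the T cell genes in those values was not tested.

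Further genes of the same pathways were read from the same fit. Of 116 listed genes, 90 had enough counts, and 5 of these (5.56%) were called in the Panc02 gate comparison, against 0.892% of all genes, each lower in the asGM1-positive gate. In the Flt3L Panc02 gate comparison 7 were higher and 10 lower (18.9% of the 90, against 8.59% of all genes). Cmah, which converts the acetyl to the glycolyl form of sialic acid, read 12.5, 11.8 and 16.4 CPM in Panc02 asGM1-negative, 4.23, 4.44 and 5.52 CPM in Panc02 asGM1-positive, 28.2, 40.2 and 30.2 CPM in Flt3L Panc02 asGM1-negative and 11.1, 13.9 and 11.1 CPM in Flt3L Panc02 asGM1-positive libraries. It was lower in asGM1-positive cells of both tumours (log2 -1.52 ± 0.19 SE, adjusted p = 0.00259, and -1.45 ± 0.19 SE, adjusted p = 0.00114). It was also higher with Flt3L in both gates (1.28 ± 0.19 SE, adjusted p = 0.00776, and 1.34 ± 0.19 SE, adjusted p = 0.00579). St8sia1, which makes the ganglioside GD3, was lower in asGM1-positive cells, with means of 6.96 and 1.71 CPM in the Panc02 gates and 9.10 and 1.59 CPM in the Flt3L Panc02 gates. The lectins Siglech and Clec10a, which dendritic cells express, were lower in asGM1-positive cells of both tumours.

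With Flt3L, 3 of the 90 other pathway genes were higher and 1 was lower in asGM1-negative cells (4.44%, against 3.7% of all genes). In asGM1-positive cells 3 were higher and 4 were lower (7.78%, against 6.25% of all genes). Both shares were near those over all genes. The difference of gate effects gave 0 called in edgeR, with 13 of the 90 at an unadjusted p under 0.05. For this count too, no share of all genes was taken. Uap1, which makes the UDP-N-acetylglucosamine used by every branching enzyme, was lower with Flt3L in both gates. It read 126, 135 and 129.6 CPM in Panc02 asGM1-negative and 75.2, 61.7 and 69.6 CPM in Flt3L Panc02 asGM1-negative libraries (log2 -0.92 ± 0.12 SE, adjusted p = 0.00499). In asGM1-positive cells it read 108, 112 and 125 CPM in Panc02 and 88.7, 73.1 and 65.8 CPM in Flt3L Panc02 (log2 -0.60 ± 0.12 SE, adjusted p = 0.0186). St3gal5, which makes the ganglioside GM3, and Mgat3, which adds the bisecting branch of N-glycans, were lower with Flt3L in asGM1-positive cells (log2 -1.68 ± 0.40 SE, adjusted p = 0.0329, and -2.86 ± 0.55 SE, adjusted p = 0.0164). The St3gal5 libraries spread widely in Panc02 asGM1-positive, at 43.1, 22.5 and 12.3 CPM. The summed markers of macrophages and monocytes in that group ranged from 1957 to 3950 CPM, and their part in this value was not tested. Summed naive and stem-like T cell genes read 873 to 913 CPM in Panc02 asGM1-negative, 287 to 356 in Panc02 asGM1-positive, 1606 to 1919 in Flt3L Panc02 asGM1-negative and 532 to 708 in Flt3L Panc02 asGM1-positive libraries. These genes moved with the same gate as St6gal1, St3gal1 and St8sia4, and their part in those values was not tested.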

How the data were processed

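Bulk RNA-seq counts of 12 libraries in 4 groups of 3 were analysed, grouped and numbered by their titles. TRIzol extraction, a TruSeq mRNA kit and a SMARTer low input kit are named per the labels' protocols, with no statement on strand. HISAT2, StringTie and mm39 are named per the submitters' processing notes, and neither their versions nor their order are given in the sources used here. The values that the authors deposited are estimated counts (expected counts) per gene and were already whole numbers. One fragment was worth about 2.71 counts (2.67 to 2.75), estimated from steps among low values, which sets a floor of 3 fragments at 8.13 counts (0.0901 CPM), for counting error only. Row identifiers without a symbol (1542 rows) stayed in the fit.

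Counts were fitted in edgeR 4.0.16 (R 4.3.3), with TMM factors, the filterByExpr filter by group and a single quasi-likelihood fit of 4 group means over 20411 genes. Benjamini-Hochberg adjustment ran over all genes, with calls under 0.05. The standard error is the absolute log2 fold change over the square root of F. The 6 comparisons were the gate in each tumour, their mean, Flt3L in each gate and the difference of the gate effects. Alternatives used DESeq2 1.42.0, limma 3.58.1 voom with quality weights, other scalings, filters and library subsets. The fit was checked on simulated data. Levels per kilobase used GENCODE M21 exon lengths on GRCm38, and promoter windows came from RefSeq on GRCm38.p6. The members and all lists were chosen with earlier results of these data known, so their counts are descriptions. Values in every library were given for each called member and for members of the same role set beside it, and of the other pathway genes up to 6 called genes per comparison were named by p. St6galnac2, which has more than 1 row, was left out. Some genes of the other lists are not reported here by name.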

Additional observations from a re-analysis of the deposited data

How the results depend on the processing

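No called member reversed its direction under any alternative run. The St6gal1 gate calls, the St6galnac3 gate calls in Flt3L Panc02 and in the mean, the St3gal1 and St8sia4 gate calls in the mean, and both Fut7 calls held under every alternative, including DESeq2 size factors and upper quartile scaling. By other tests, DESeq2 called 4 members in the Panc02 gate comparison, 11 in the mean over both tumours, 9 for Flt3L in asGM1-negative cells and 4 for the difference of gate effects. In the same comparisons limma-voom called 6, 12, 10 and 4, and it called 7 for Flt3L in asGM1-positive cells. Both tests called more of all genes too. In the same order DESeq2 called 2.89%, 11.5%, 10.9% and 4.23% of all genes. By limma-voom it was 4.07%, 12.4%, 17.3% and 3.85%, and 15.3% for Flt3L in asGM1-positive cells. Fits to the compared libraries alone called 5 in the Flt3L Panc02 gate comparison, against 5.81% of all genes. For Flt3L in asGM1-positive cells the count of members was 0. That fit called 1 of 18573 genes (0.00538%) and so says nothing about the members. Leaving out 1 library each gave 1 to 1 members in the Panc02 gate comparison, 4 to 11 in Flt3L Panc02, 4 to 8 in the mean, 1 to 4 for Flt3L in asGM1-negative cells, 0 to 4 in asGM1-positive cells, and 0 to 1 for the difference. In that order, the shares of all genes called were 0.443% to 1.06%, 3.63% to 9.16% and 3.82% to 7.5% for the gate comparisons. For the others they were 0.442% to 4.53%, 1.01% to 8.16% and 0.0047% to 1.21%. In subsets chosen after seeing the data, leaving out both Panc02 libraries numbered 1 gave 2 for Flt3L in the negative gate and 0 in the positive gate. Of all genes, 2.3% and 1.92% were called there. Leaving out both Flt3L Panc02 libraries numbered 1 gave 2 in the Panc02 gate comparison, 7 in Flt3L Panc02 and 6 for Flt3L in asGM1-positive cells. The shares of all genes there were 1%, 5.64% and 9.12%. The cause of these changes was not tested.

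The labels do not say that a replicate number marks a shared animal or day. Correlations of same-numbered deviations between the gates of a tumour lay between 0.022 and 0.284, with 3 of 6 pairs over 0.1, and 11 of 12 libraries correlated best with their own number, a hint of pairing from the data and not the design. With the number as a replicate block over the 12 libraries, 1 member (Fut7) was called for the difference of gate effects, and a block within tumour type called 1 as well (Fut7). Of all genes, these fits called 0.661% and 0.999%. The block over the 12 libraries lost St6galnac6 in the Flt3L Panc02 gate comparison, Galnt3 in the mean and Gcnt1 for Flt3L in asGM1-negative cells, and gained Fut7 in the mean. The block within tumour type lost Mgat2 and gained St3gal2 in the Flt3L Panc02 gate comparison, and lost St3gal6 and gained Fut7 and Nans in the mean. Gcnt2, St8sia6 and St6galnac3 have the fewest counts, which limits the precision of their fold changes.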
